A study of Mus musculus with 3 samples.

Results

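The SCL and LMO2 complex genes are the 5 genes Tal1, Lyl1, Lmo2, Lmo4 and Ldb1, which were chosen by name. Their data are the CUT&Tag peaks of Flag-tagged Bcl11a inside each gene or within 100 kb of either of its outer ends. Overlapping peaks of the 3 libraries were joined into 60816 regions, of which 93 lay in these windows. A region is called reproducible where it held a peak of every library, which was true of 44 of the 93 and of 22987 of the 60816. Each region was also given to the protein-coding gene whose outer end lay nearest to its summit, and for 21 of the 44 that gene was the member itself.

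CUT&Tag uses an antibody to bring a transposase to a protein on chromatin, so that the DNA beside the protein is cut out and sequenced. The 3 libraries form a single group, made from LSK cells (lineage-negative, Sca-1-positive and Kit-positive) sorted from mouse bone marrow, the fraction in which blood stem cells are found. Per the series' design text, the mice carried a 3xFlag tag knocked into the N-terminal end of Bcl11a, a zinc finger repressor, although the genotype label reads wildtype. The design asks how Bcl11a works in blood formation, and the question here is where the tagged protein's signal lay around these 5 genes. The labels used here give neither age nor sex and do not tie the libraries to separate animals, so each SD is the spread between libraries, which may be technical. A library without the tag or without the antibody was not analysed here, so signal from Bcl11a and from open chromatin cut without it cannot be told apart.

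The proteins of these genes take part in related assemblies in blood stem cells and red cell precursors. SCL, the product of Tal1, and its close relative LYL1 are basic helix-loop-helix factors that pair with E proteins and bind the E-box. LMO2 and LMO4 are small LIM-only proteins that do not bind DNA themselves but bridge such factors to LDB1. LDB1 self-associates and can thereby hold distant sites together, often with a GATA factor on the adjoining DNA. Tal1 and Lmo2 are needed to make blood stem cells, and Lyl1 partly overlaps with Tal1 in keeping them.

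The libraries held 36459 to 43462 peaks on the autosomes and sex chromosomes. Summit pileup, the number of fragments stacked at a peak's highest base, was solved from the deposited values and divided by the library's background of 1.07, 1.41 and 1.95 fragments per base in libraries 1, 2 and 3. Fold enrichment, the authors' own value for each peak, sets the summit against the local background of that place. As a check of the cell type, 6 of 8 LSK marker genes had a reproducible region within 1 kb of an outer end, and Ly6a, which encodes Sca-1, had none nearest to it. Of 17 markers of T cells, B cells, granulocytes, red cells and endothelium, 1 had such a region (Cd79a, a B cell receptor subunit gene). Peaks do not measure expression, so this bears on chromatin only.

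Start sites were compared first, since RefSeq gives 9 start windows (250 bases before and 50 after a start) for 4 of the 5 genes, with no entry for Lmo2. A peak of every library lay over 5 of the 9, where 38.9% of the start windows of protein-coding genes had one. The windows of Lmo4 starts 2 and 3 overlapped and lay under the same peaks, so the 5 are not all separate. Counted by gene this was 3 of 4, Lyl1, Lmo4 and Ldb1, where 41.2% of protein-coding genes with an entry had at least 1 such window. The sequences below are the 250 bases before 6 of these starts, from RefSeq on GRCm38.p6, the assembly behind mm10, each written 5′ to 3′ on the gene's own strand. They are shown because they set starts with a peak of every library (Lyl1, Lmo4 start 2 and Ldb1 start 1) beside starts with a peak of 1 library (Tal1 start 2) or of none (Tal1 start 1 and Ldb1 start 3). Capitals mark, on either strand, the E-box CANNTG, the GATA factor word GATAA, the pair of CTG and, 7 to 9 bases on, GATA, the ETS word GGAAGT, the RUNX word TGTGGT, the Bcl11a word TGACCA and CCAAT.
Tal1 start 1, chr4:115056176-115056425, plus strand: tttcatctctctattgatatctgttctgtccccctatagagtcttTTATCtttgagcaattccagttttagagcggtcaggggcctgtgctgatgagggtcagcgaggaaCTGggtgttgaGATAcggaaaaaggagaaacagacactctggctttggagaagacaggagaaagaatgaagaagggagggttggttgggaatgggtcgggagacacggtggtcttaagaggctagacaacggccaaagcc
Tal1 start 2, chr4:115057561-115057810, plus strand: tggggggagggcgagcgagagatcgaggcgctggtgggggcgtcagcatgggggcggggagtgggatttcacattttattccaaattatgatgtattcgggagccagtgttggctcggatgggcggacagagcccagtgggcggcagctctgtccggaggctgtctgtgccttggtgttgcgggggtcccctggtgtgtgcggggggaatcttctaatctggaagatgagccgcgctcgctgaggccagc
Lyl1 start 1, chr8:84701207-84701456, plus strand: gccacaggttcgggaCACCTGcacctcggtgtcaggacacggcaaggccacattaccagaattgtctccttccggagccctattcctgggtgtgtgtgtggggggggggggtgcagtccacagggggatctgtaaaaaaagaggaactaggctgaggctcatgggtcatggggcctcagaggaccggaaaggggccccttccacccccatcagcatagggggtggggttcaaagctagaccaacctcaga
Lmo4 start 2, chr3:144202397-144202646, minus strand: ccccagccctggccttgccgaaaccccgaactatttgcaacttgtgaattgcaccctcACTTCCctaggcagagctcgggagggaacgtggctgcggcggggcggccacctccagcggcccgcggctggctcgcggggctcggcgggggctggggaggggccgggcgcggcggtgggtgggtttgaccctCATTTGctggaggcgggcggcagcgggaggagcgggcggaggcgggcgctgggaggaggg
Ldb1 start 1, chr19:46045312-46045561, minus strand: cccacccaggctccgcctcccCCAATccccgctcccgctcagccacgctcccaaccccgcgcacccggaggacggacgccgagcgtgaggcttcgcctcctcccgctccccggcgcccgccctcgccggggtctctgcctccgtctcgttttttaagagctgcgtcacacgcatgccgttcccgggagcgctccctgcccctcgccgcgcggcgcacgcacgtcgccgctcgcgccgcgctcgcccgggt
Ldb1 start 3, chr19:46037071-46037320, minus strand: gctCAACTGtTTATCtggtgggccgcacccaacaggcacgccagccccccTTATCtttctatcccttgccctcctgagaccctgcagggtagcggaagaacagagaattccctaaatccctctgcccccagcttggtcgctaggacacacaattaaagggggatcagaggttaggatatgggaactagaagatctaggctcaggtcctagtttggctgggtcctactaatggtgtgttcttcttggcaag

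None of the 5 member starts with a peak of every library held GATAA, and among them the sequences of Lmo4 starts 2 and 3 overlap. Of the 4 others 2 did, Tal1 start 1 and Ldb1 start 3, which had no peak, while Tal1 start 2 and Ldb1 start 2, with a peak of 1 and of 2 libraries, held none. The first Tal1 start also held the pair of CTG and GATA in the order that SCL complexes are known to favour, from 140 to 126 bases before the start. In the whole table of 32851 start windows, GATAA stood in 11.5% of those with a peak of every library and in 27.1% of the others, and in 22.6% of all. The CTG and GATA pair stood in 3.71% and 7.11%, and in 6.13% of all. Base composition moved with this: the median GC content was 62.4% in windows with a peak of every library and 52.4% in all windows. The printed starts had 48.8% (Tal1 start 1), 62.8% (Tal1 start 2), 60% (Lyl1), 73.6% (Lmo4 start 2), 76% (Ldb1 start 1) and 53.2% (Ldb1 start 3) GC, and its part in the motif counts was not tested. TGACCA, the word that Bcl11a is known to bind, stood in none of the 9 member windows. It stood in 10.2% of windows with a peak of every library, 11.8% of the others and 11.4% of all. In the same order CANNTG stood in 54.1%, 71.1% and 66.2%, and TGTGGT in 10.7%, 15.4% and 14%. GGAAGT (24.1%, 18% and 19.7%) and CCAAT (36.6%, 32.7% and 33.8%) went the other way and were more frequent with a peak. A match is a description of the letters, and the absence of one says nothing of the factor.

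**Figure D1:**
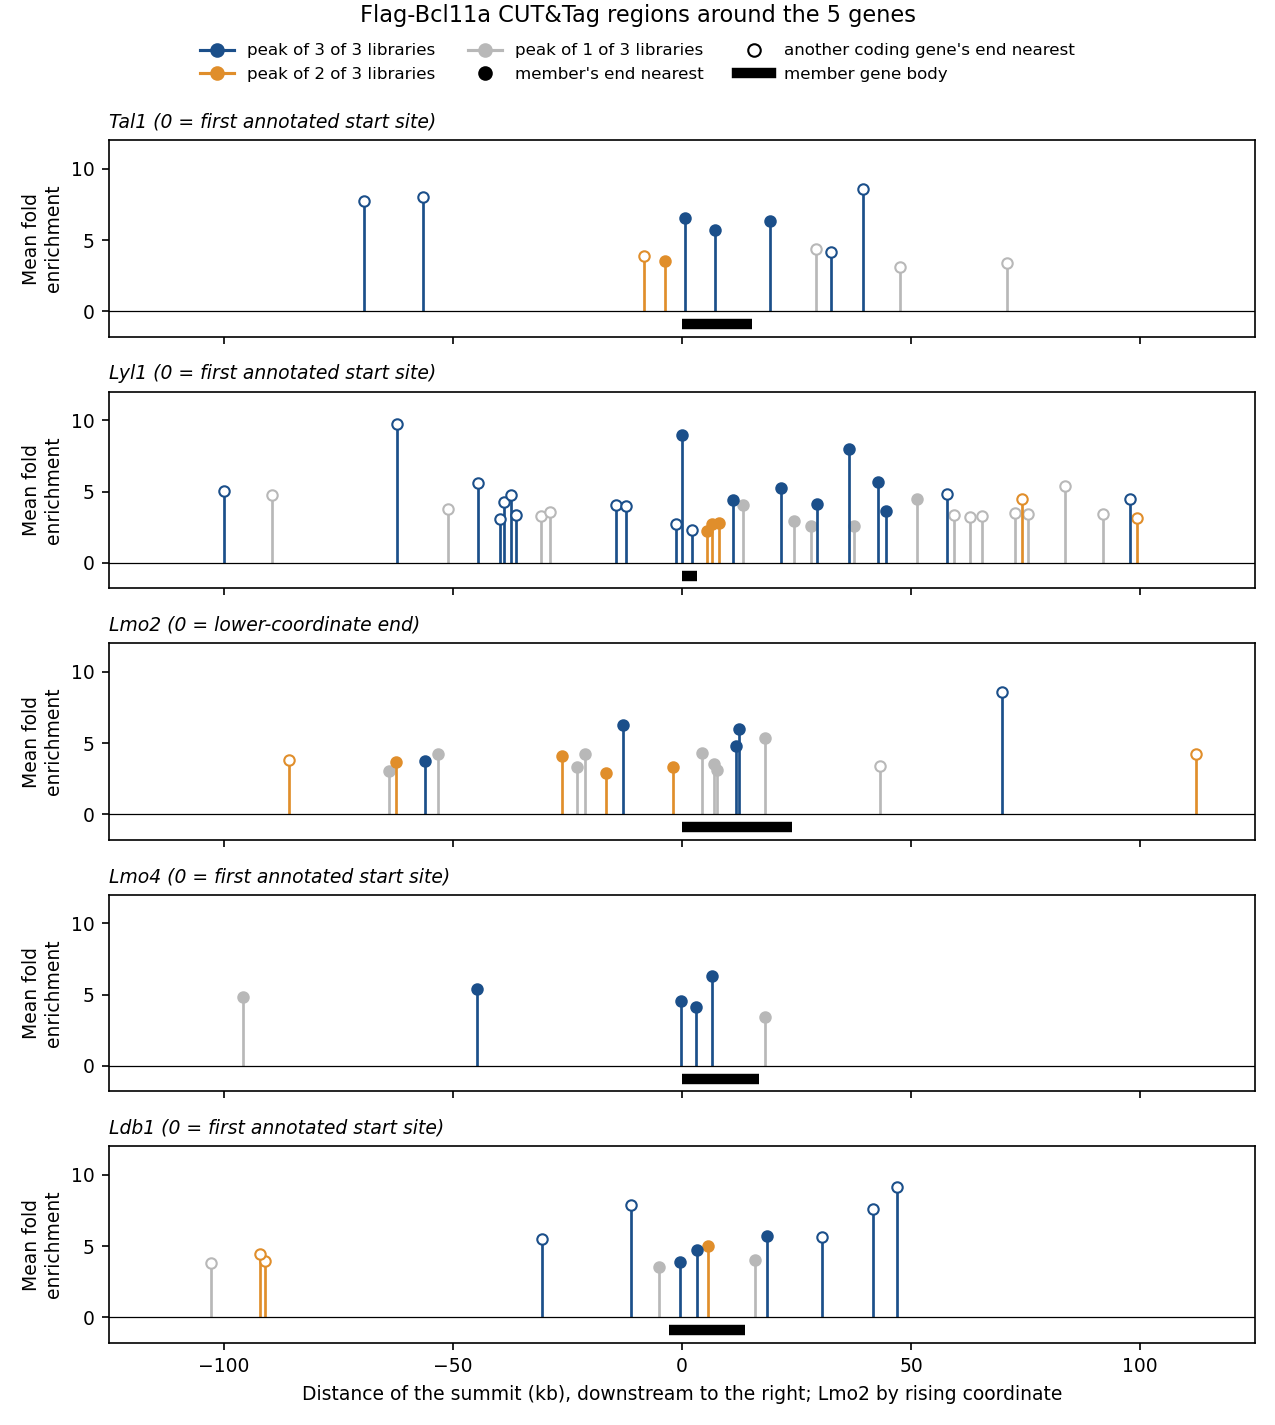
Regions in the windows of the 5 genes by the distance of their summit from the first annotated start (Lmo2: from the lower-coordinate end), in kb, with mean fold enrichment over the libraries that had a peak on the vertical axis. Colours give the number of libraries, open circles mark regions nearer to another protein-coding gene, and the black bar is the gene; the crowded Lyl1 window held 20 reproducible regions and the Lmo4 window 4.

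Over the whole 100 kb windows, a protein-coding gene had a median of 4 reproducible regions, and 25.8% of protein-coding genes had as many as Ldb1 (8), 30.7% as many as Tal1 (7), 43.4% as many as Lmo2 (5) and 51.0% as many as Lmo4 (4). Lyl1 had 20, a number reached by 1.07% of protein-coding genes.

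By the nearest end, each of the 5 genes had at least 3 reproducible regions nearest to it, as did 10.4% of all 21883 protein-coding genes. Of all protein-coding genes 53.3% had at least 1. Lyl1 had 7, a number reached by 1.24% of protein-coding genes, Lmo2 and Lmo4 had 4 each (5.62% had at least 4), and Tal1 and Ldb1 had 3 each. Of the 21 regions, 3 came within 1 kb of an outer end of their gene, 7 lay inside the gene and 11 lay outside it. The same split was not computed for all reproducible regions, so it describes the 21 alone. An outer end was reached at 3 of the 5 genes, Tal1, Lyl1 and Lmo4, against 45.2% of protein-coding genes. All 4 reproducible regions in the Lmo4 window were nearest to Lmo4, whereas 13 of the 20 in the Lyl1 window were nearest to 5 neighbours, and the part of gene spacing in these counts was not tested. With 50% reciprocal overlap the 21 became 11, with the 10000 strongest peaks of each library 4, and with ends of noncoding genes competing 10.

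Tal1 (chr4:115056426-115071755, plus strand), the gene of SCL, carried 3 reproducible regions, with mean summit pileups of 32.3, 23.8 and 16.9 times library background from the start outwards. The region nearest the start, chr4:115056544-115057731, began 118 bp after the first annotated start and stopped 80 bp before the second, so that it filled the stretch between the 2 starts printed above. Its summit pileups were 33, 50 and 59 fragments in libraries 1, 2 and 3, and its fold enrichments 6.73, 6.87 and 6.08 (mean 6.56 ± 0.42, SD, n = 3). Only the peak of library 3 reached into the second start window, and no library had a peak over the first. It was the strongest of the 3 by pileup in 3 of 3 libraries and by fold enrichment in 2 of 3.

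Inside Tal1, 7.1 kb after the first start, lay a broad region of 1615 bp (chr4:115062704-115064318). Its fold enrichments were 5.99, 5.97 and 5.21 (5.72 ± 0.44, SD, n = 3) and its pileups 25, 37 and 42. The summits of the 3 libraries stood up to 921 bp apart there, against a median of 128 bp for reproducible regions, so the libraries agreed on the place less closely than usual. The third region, chr4:115075386-115076181, lay beyond the end of the gene, 19.3 kb after the first start. Blood stem cells are known to use an enhancer of Tal1 on this side of the gene, and whether this region is that element was not tested. Its pileups were 16, 22 and 39 fragments, below those of the region near the start in 3 of 3 libraries. Its fold enrichments were 5.46, 5.83 and 7.62 (6.31 ± 1.15, SD, n = 3), highest in library 3, where the region near the start was lowest.

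Farther down, a stronger region at chr4:115095537-115096868 lay 39.5 kb after the Tal1 start and 2047 bp from an end of Pdzk1ip1, the gene that follows Tal1. An enhancer of Tal1 used in red cell precursors is known from beyond Pdzk1ip1. The pileups were 68, 79 and 78 fragments and the fold enrichments 9.94, 8.97 and 6.77 (8.56 ± 1.63, SD, n = 3). In each of the 3 libraries this pileup was above that of every region given to Tal1 itself. By the rule of the nearest end it belonged to Pdzk1ip1, and which gene it serves was not measured. Upstream, a region 3750 bp before the start (chr4:115052468-115053092) was found in libraries 1 and 2, with fold enrichments of 3.57 and 3.55, and not in library 3.

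Lyl1 (chr8:84701423-84704716, plus strand), the partner gene of Tal1 in adult stem cells, had by far the highest summit of the 5 genes. The region over its start, chr8:84701105-84702024, had 168, 280 and 334 fragments at the summit, with summits 0 to 63 bp after the annotated start printed above. Over the library background this was 176-fold ± 21.2 (SD, n = 3), which placed it at percentile 99.3 of all reproducible regions. Its fold enrichment of 8.05, 10.1 and 8.68 (8.95 ± 1.06, SD, n = 3) placed it only at percentile 79.7. The gap between the measures came with the local background, which was 18.7, 19.0 and 19.3 times the library background at this summit (19.0 ± 0.30, SD, n = 3). Among all reproducible regions 3.03% had a local background over 10 times that of the library, and in the Lyl1 window 7 of 20 had one. What raised the background there was not tested.

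The other 6 regions given to Lyl1 lay 11.2 to 44.5 kb after its start, and all 6 had their summit inside Nfix, the neighbouring gene of a nuclear factor I protein. The strongest was chr8:84737494-84738257, 36.4 kb after the start, with pileups of 67, 75 and 92 and fold enrichments of 8.98, 7.58 and 7.46 (8.01 ± 0.84, SD, n = 3). The others ranged from 3.66 ± 0.67 to 5.69 ± 0.94 in mean fold enrichment (SD, n = 3). By pileup the start of Lyl1 stood above all 6 in 3 of 3 libraries, and by fold enrichment it did so in 2 of 3. The Lyl1 window held a further reproducible region inside Lyl1 itself, chr8:84703286-84703924, whose summit was nearer to an end of Nfix. Its pileups were 58, 59 and 95 fragments, but its fold enrichment was only 2.28 ± 0.35 (SD, n = 3), with a local background 20.9 ± 0.79 times that of the library.

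The upstream side of the window held another strong region, chr8:84638328-84639710, 62.1 kb before the Lyl1 start and 928 bp from an end of Cacna1a, a calcium channel gene. Its pileups of 100, 124 and 130 fragments and fold enrichment of 9.77 ± 1.12 (SD, n = 3) made it the strongest by fold enrichment of the 44 regions. Around Ier2, an immediate early gene, 5 reproducible regions stood between 36.2 and 44.5 kb before the Lyl1 start, with pileups of 41 to 72 fragments in library 1. Their mean fold enrichments were 3.09 ± 0.47 to 5.60 ± 1.33 (SD, n = 3), below the median of 6.25 for all reproducible regions. Local background there was 7.41 to 14.5 times that of the library.

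**Figure D2:**
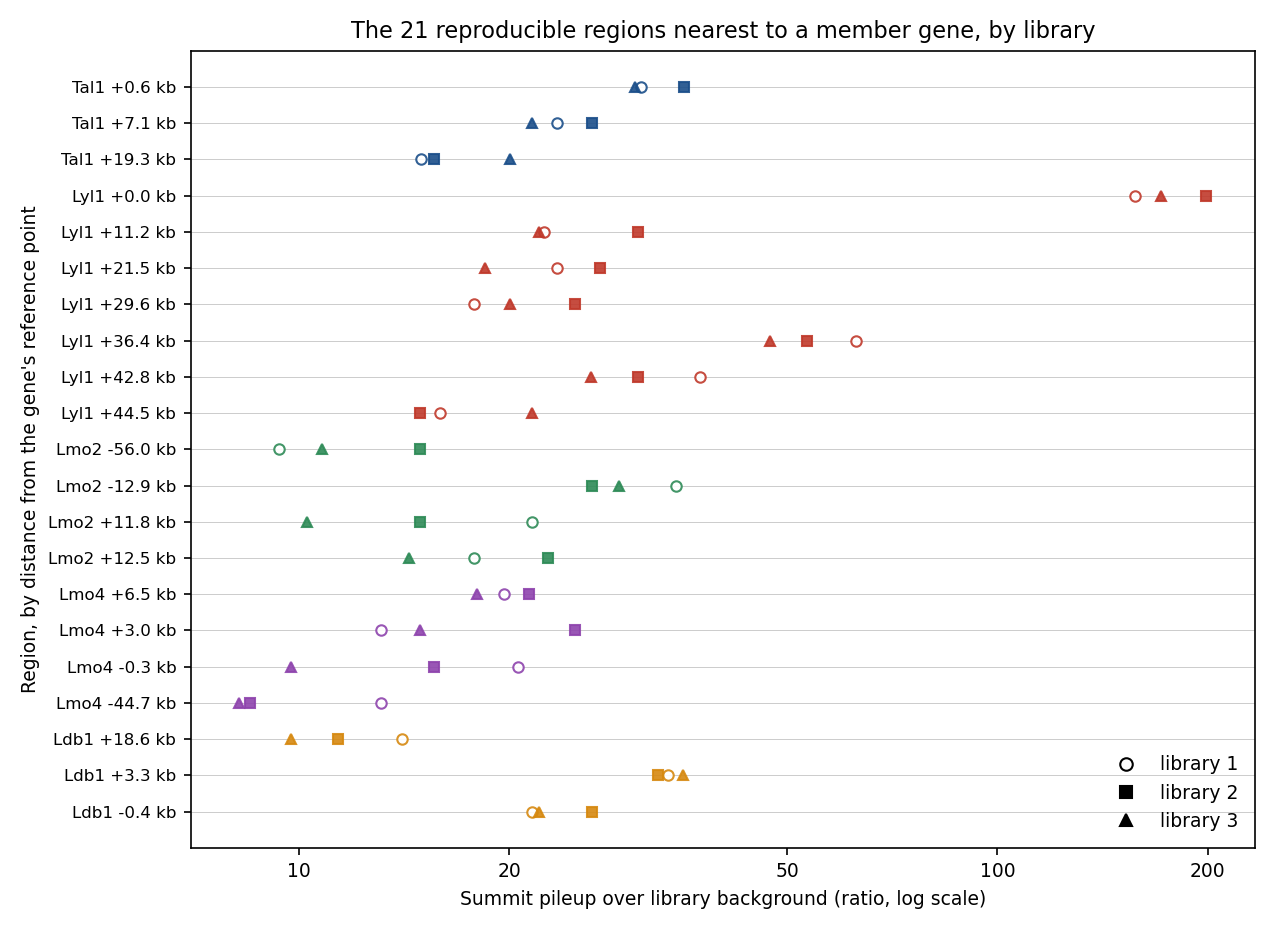
Summit pileup divided by library background (log scale) for the 21 reproducible regions nearest to a member gene, 1 row a region, named by gene and distance in kb from the gene's reference point, with 1 symbol for each library. The Lyl1 start stands apart at 157 to 199 times background, while the other 20 regions lie between 8.22 and 62.8.

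Lmo2 (chr2:103957903-103981878) had no reproducible region at either outer end and 4 nearest to it. Without strand in the table used, distances are from the lower-coordinate end. The strongest, chr2:103944683-103945996, lay 12.9 kb below that end, with pileups of 37, 37 and 56 and fold enrichments of 7.07, 5.38 and 6.40 (6.29 ± 0.85, SD, n = 3). The summits of the 3 libraries fell within 3 bp of each other, the closest agreement among the 21 regions. Lmo2 is known to be driven by several promoters and by enhancers spread over the flanking DNA.

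Inside Lmo2 a pair of regions lay close together, 11.8 and 12.5 kb above the lower-coordinate end. The first, chr2:103969462-103969864, had fold enrichments of 6.16, 4.70 and 3.61 (4.82 ± 1.28, SD, n = 3), and the second, chr2:103970167-103970989, had 5.54, 6.96 and 5.42 (5.97 ± 0.86, SD, n = 3). The libraries ordered this pair differently: the first was higher in library 1 and the second in libraries 2 and 3. The fourth region, chr2:103901285-103901985, lay 56.0 kb below the end and was weak, with pileups of 10, 21 and 21 fragments and a fold enrichment of 3.74 ± 0.67 (SD, n = 3).

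Lmo2 also had the lowest share of reproducible regions in its window. Of the 20 regions in its window 5 were reproducible (25%), 6 came from 2 libraries and 9 from a single one. The other windows had 48.8% to 66.7% reproducible. In the whole series 37.8% of regions were reproducible, 16.2% came from 2 libraries and 46.0% from a single one. Of the 9 single-library regions 7 came from library 3, whose library background in fragments per base was 1.82 times that of library 1. Over all 5 windows library 3 gave 21 of 33 single-library regions (63.6%), against 44.2% in the whole series. The part of the higher background of library 3 in this was not tested. Without library 1, regions shared by the other libraries and nearest to Lmo2 numbered 7 instead of 4. A peak of libraries 2 and 3 was enough there, and the 22987 of the series became 27270. Regions of 2 libraries at Lmo2 included chr2:103955728-103955976, 1977 bp below the lower-coordinate end, with fold enrichments of 3.32 and 3.28 in libraries 2 and 3, and chr2:103931114-103931998, 26.2 kb below it, with 3.24 and 4.89.

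Lmo4 (chr3:144188530-144205255, minus strand), a LIM-only gene used in many tissues, had 4 reproducible regions, and they covered all 3 of its start windows. At the first start, chr3:144205014-144206036 had pileups of 22, 22 and 19 fragments. The fold enrichments there were 6.37, 4.11 and 3.13 (4.54 ± 1.66, SD, n = 3), highest in library 1 and lowest in library 3. The region chr3:144201850-144202811 covered the other 2 starts and had fold enrichments of 3.51, 5.09 and 3.74 (4.12 ± 0.86, SD, n = 3). Library 2 was highest in this region. In library 1 the peak over these starts was a weaker one of the same region, with 12 fragments and a fold enrichment of 3.11.

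The strongest Lmo4 region by fold enrichment lay inside the gene, 6.5 kb after the first start (chr3:144198549-144199003). Its values were 6.93, 5.96 and 5.91 (6.27 ± 0.58, SD, n = 3), above the other regions of the gene in 3 of 3 libraries. The last region, chr3:144249549-144250706, lay 44.7 kb before the start, with pileups of 14, 12 and 16 fragments and a fold enrichment of 5.39 ± 0.79 (SD, n = 3). Its local background was 1.24 ± 0.21 times that of the library, the lowest of the 21. Lmo4 no longer had a region at an outer end with −log10 q of at least 5, with 50% reciprocal overlap or with the 10000 strongest peaks of each library.

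Ldb1 (chr19:46031525-46048145, minus strand), the bridging cofactor gene, had no reproducible region within 1 kb of an outer end, yet its first annotated start inside the gene was covered. That region, chr19:46044837-46046286, had pileups of 23, 37 and 43 fragments and fold enrichments of 3.81, 4.17 and 3.62 (3.86 ± 0.28, SD, n = 3), with summits 258 to 506 bp before the start. The second start had a peak in libraries 1 and 2, with 28 and 39 fragments and fold enrichments of 5.17 and 4.79, and none in library 3. The third start had no peak in any library. With ends taken as 3 kb wide instead of 1 kb, Ldb1 counted as reached and 50.8% of protein-coding genes did.

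Between the first and second Ldb1 start, chr19:46041849-46042613 had the highest pileup of the gene in 3 of 3 libraries, with 36, 46 and 69 fragments, 34.0 ± 1.40 times background (SD, n = 3). Its fold enrichment was 4.70 ± 0.36. Beyond the far end of the gene, 18.6 kb after the first start, chr19:46026275-46026989 had only 15, 16 and 19 fragments but a fold enrichment of 5.72 ± 0.55 (SD, n = 3), the highest of the gene in 3 of 3 libraries. The order of these regions therefore depended on the measure. Local background was 6.68 ± 0.49 times that of the library at the former and 1.46 ± 0.22 times at the latter.

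Across the 21 regions, mean fold enrichment ran from 3.66 to 8.95 with a median of 5.39, below the median of 6.25 for all reproducible regions. In fold enrichment 4 of 21 (19.0%) stood above the 50th percentile, where 48.4% of all reproducible regions did. By pileup over library background 13 of 21 (61.9%) stood above it, where 49.9% of all did, and the median was 20.9 against 17.7. The median local background of the 21 regions was 3.81 times that of the library, against 2.13 for all reproducible regions. The regions were 403 to 1615 bp wide, with a median of 823 bp against 752 bp. These shares describe regions that share genes and neighbourhoods, and no test was run on them.

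**Figure D3:**
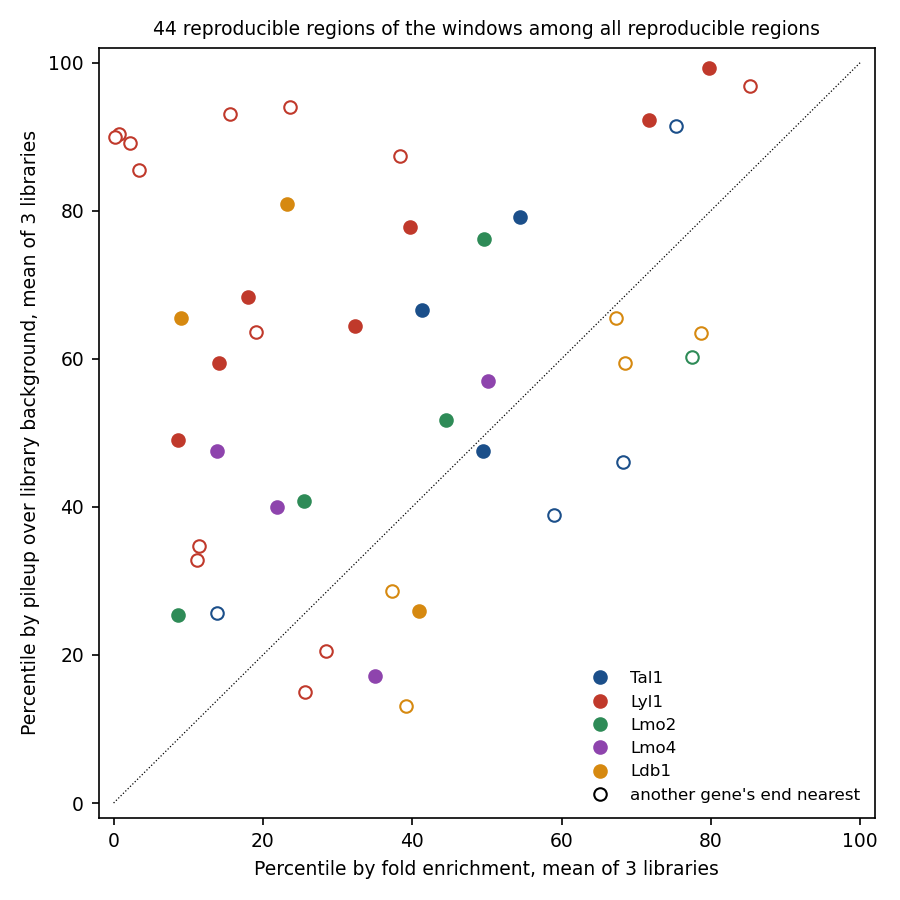
Percentile of the 44 reproducible regions among all 22987, by fold enrichment (horizontal) and by summit pileup over library background (vertical), each the mean of 3 libraries. Filled circles are the 21 regions nearest to a member gene and open circles those nearer to another gene; most lie above the dotted line of equal rank, and the Lyl1 start is at 79.7 and 99.3.

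Set beside each other by their strongest region, the genes came in the order Lyl1 (8.95 ± 1.06), Tal1 (6.56 ± 0.42), Lmo2 (6.29 ± 0.85), Lmo4 (6.27 ± 0.58) and Ldb1 (5.72 ± 0.55), in fold enrichment (SD, n = 3). Lyl1 was above each of the other 4 in 3 of 3 libraries. Tal1 was above Ldb1 in 3 of 3 libraries and above Lmo2 in 1 of 3, and the neighbours in the order from Tal1 to Ldb1 lay within their spread. Ranked by each gene's highest pileup over library background, the order was Lyl1 (176 ± 21.2), Ldb1 (34.0 ± 1.40), Tal1 (32.3 ± 2.86), Lmo2 (29.9 ± 4.29) and Lmo4 (19.7 ± 1.67), so that Ldb1 moved from last place to the place after Lyl1. Ldb1, Tal1 and Lmo2 lay within their spread there. With 3 libraries the smallest p of an exact two-sided sign-flip permutation test is 0.25, so no order was tested.

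The windows also held 23 reproducible regions nearest to 13 other protein-coding genes, and 14 of them had their summit within 1 kb of that gene's end. The share of all reproducible regions with a summit that close to a coding gene's end was not computed. Near Tal1 the other genes were Cmpk1, which encodes a nucleotide kinase, Stil, a centriole assembly gene, and Pdzk1ip1. Stil had fold enrichments of 6.33, 10.5 and 7.10 at an end 56.4 kb before the Tal1 start, and Cmpk1 had 5.72, 6.003 and 11.4, with library 3 far above the others. Around Lyl1 they were Cacna1a, Ier2, Nacc1, Nfix and Trmt1. Around Ldb1 they were Armh3, Hps6, Nolc1 and Pprc1. The ends of Armh3 (9.15 ± 2.09), Pprc1 (7.86 ± 1.42) and Hps6 (7.58 ± 0.85) had higher mean fold enrichments than the strongest Ldb1 region (5.72 ± 0.55), while the end of Nolc1 (5.50 ± 0.11) and the second Hps6 region (5.60 ± 0.58) lay within its spread (SD, n = 3). Next to Lmo2 the end of Fbxo3, an F-box gene, had 8.38, 8.68 and 8.65 (8.57 ± 0.16, SD, n = 3), above the strongest Lmo2 region in 3 of 3 libraries. Nearest to the 100 kb limit on either side were a region 99.6 kb from Lyl1 (5.01 ± 0.92) and one 104 kb from Ldb1 (7.87 ± 0.77, SD, n = 3).

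Partners of the complex were taken from lists of 27 genes, and 18 of them had a reproducible region within 1 kb of an outer end, where 45.2% of protein-coding genes did. At least 3 regions were nearest to 12 of the 27, against 10.4% of protein-coding genes. The lists differed: all 10 genes of the cofactor list, all 3 E protein genes and all 3 SSBP genes (single-stranded DNA binding proteins that stabilise LDB1) were reached at an end. Of the 3 GATA genes only Gata2, which acts in stem cells, was reached. None of the 6 paralogs of the members (Tal2, Nhlh1, Nhlh2, Lmo1, Lmo3 and Ldb2) had any reproducible region nearest to it. Peaks of 1 or 2 libraries made 8 regions there, 4 of them at Lmo1.

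Among the E protein genes Tcf3, which encodes E2A, had the highest pileup when each gene was represented by its region of highest fold enrichment, with 91, 119 and 205 fragments, 91.7 ± 11.8 times background (SD, n = 3). Among cofactors Cbfa2t3, the corepressor ETO2 that joins SCL complexes, had 12 regions nearest to it, the most of the 27. The one of highest fold enrichment had 175, 197 and 259 fragments and lay 12772 bp from its nearest end. Runx1, a stem cell factor that works beside SCL, had 11, 7 of them inside the gene. Hdac2, a histone deacetylase gene, had the highest fold enrichment of the lists at 16.8 ± 0.54 (SD, n = 3). That region was not the one at its end but lay 56183 bp from the nearest end of Hdac2. Gata2 had 5 regions, with its strongest, 27783 bp from its nearest end, at 5.74 ± 0.58 in fold enrichment (SD, n = 3). Gata3, a T cell factor, had 4, with its strongest, 81396 bp from its nearest end, at 8.70 ± 1.05 in fold enrichment (SD, n = 3). No region reached an end of Gata3, and Gata1, the red cell factor, had no peak of any library nearest to it. Klf1, another red cell factor and in the cofactor list, had 1 region, at an end, of 8.39 ± 0.94 in fold enrichment (SD, n = 3). Erg and Fli1, ETS factors that share stem cell enhancers with SCL and LMO2, had 9 and 7, and Fli1 was not reached at an end. Ssbp2 and Ssbp3 had their strongest regions at 9.99 ± 2.05 and 12.2 ± 0.90 in fold enrichment (SD, n = 3). These lay 760 and 30191 bp from the nearest end of their gene.

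**Figure D4:**
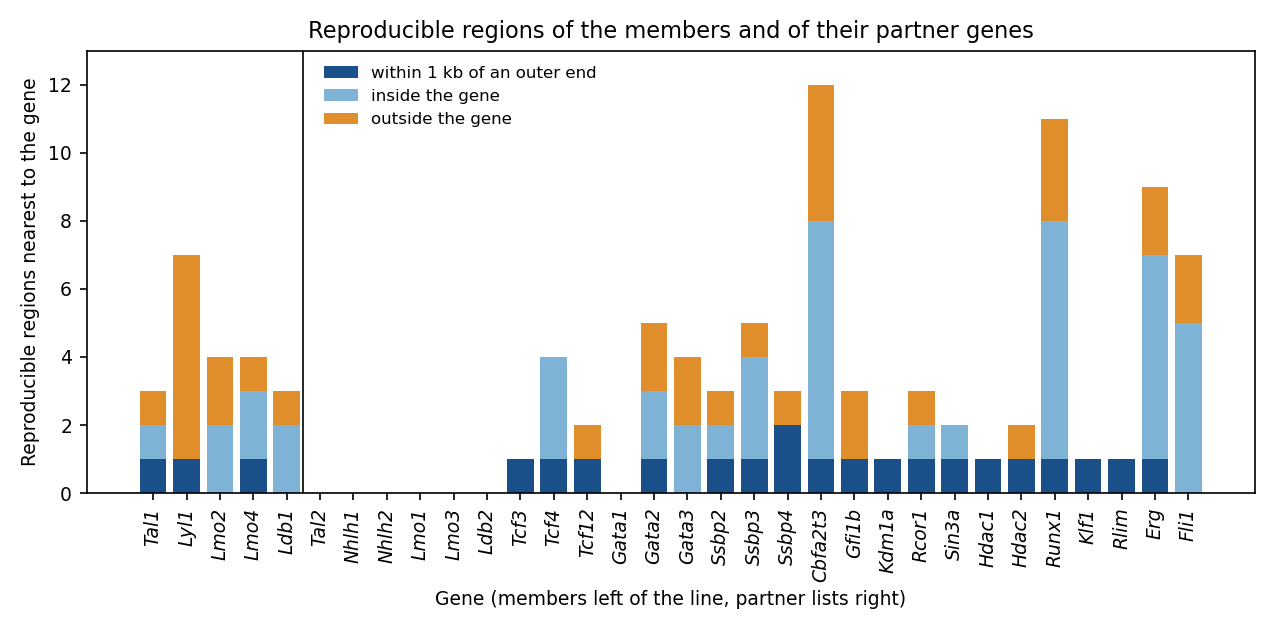
Number of reproducible regions nearest to each member (left of the line) and each of the 27 partner genes (right), split by place: within 1 kb of an outer end, inside the gene or outside it. The 6 paralogs from Tal2 to Ldb2 and Gata1 have none, and Cbfa2t3 and Runx1 have the most, 12 and 11.

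By the counts of regions at an end, inside and outside, the partner most like Tal1 was Ssbp2, with Rcor1 equal to it (1, 1 and 1 in each, a Euclidean distance of 0). Gata3 had the same counts as Lmo2 (0, 2 and 2). Gata2, Ssbp2, Ssbp3 and Rcor1 were 1 away from Lmo4, and Gata3 was 1 away from Ldb1. Gfi1b, a repressor gene of red cells and platelets, came nearest to Lyl1 at a distance of 4. The likeness rests on 3 counts from the same 3 libraries.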

How the data were processed

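Per the submitters' processing notes, the build was mm10 and the tools were Bowtie2, SAMtools and MACS2; no source used here gives versions, settings or duplicate removal. The authors deposited 1 peak list per library, called for each library separately. The fold enrichment the authors deposited is a ratio of summit pileup to local background, as made by MACS2 per the submitters' processing notes. The −log10 p and −log10 q the authors deposited were made by the same caller. The score the authors deposited was made from the −log10 q by the caller and was not used. Each deposited list reached down to a −log10 q of 1.30 to 1.31.

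Here, peaks of chromosomes 1 to 19, X and Y that overlapped by at least 1 bp were joined; a region's value in a library is that of its strongest peak there. Summit pileup was solved from the fold enrichment (1 is added to pileup and background) and the −log10 p (a Poisson tail). Whole pileups matched the deposited −log10 p within 0.001 for 100% of peaks (99.9954% in library 3). Library background is the lowest background of a library. Percentiles are among all 22987 reproducible regions. Genes and start windows came from RefSeq tables of GRCm38.p6, with no genome sequence used, so exon and UTR classes and region sequences were not analysed here. The joining and nearest-end steps were tested on simulated data with Python 3.11.15, numpy 2.4.6, pandas 2.3.3 and scipy 1.17.1. Named genes are the members, the neighbours whose end was nearest to a reproducible region of a window, the partner lists and the marker lists. Members, lists, start windows and alternatives were chosen with earlier results of these data known. Alternatives were 50% reciprocal overlap, −log10 q of at least 5, the 10000 strongest peaks, regions of at least 2 libraries, each library left out, 50 kb windows, ends of all genes, and 250 bp or 3 kb at ends.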

Additional observations from a re-analysis of the deposited data

How the results depend on the processing

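The 44 reproducible regions of the windows became 28 with 50% reciprocal overlap and 10 with the 10000 strongest peaks, while the 22987 of the series became 15806 and 7210, and the 21 nearest to a member became 11, 4 and, with ends of all genes competing, 10. Fewer peaks or more competing ends enter by construction there. With the 10000 strongest peaks Lmo2, Lmo4 and Ldb1 had 0 and Tal1 and Lyl1 had 1 and 3. Leaving out each library gave 47 to 52 and 23 to 26 regions, and 3 of 5 member ends throughout. A region then needed peaks of only 2 libraries, so higher counts enter by construction, and the series rose to between 25124 and 27270. The rank of the strongest region by fold enrichment, pileup over background and −log10 q was percentile 54.4, 79.2 and 73.2 for Tal1, 79.7, 99.3 and 99.0 for Lyl1, 49.6, 76.1 and 68.5 for Lmo2, and 41.0, 25.9 and 30.1 for Ldb1; for Lmo4 it moved by less than the spread between libraries. The other 47 values recomputed kept within 1.5 times their count or within 1 SD. The series has a single group, so groups could not be compared, and regions were set beside each other within each library without a test. Pileups near 10 fragments limit the weakest regions, and the background in fragments per base differs between libraries.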
